A study of Mus musculus with 6 samples.

Results

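Thymic epithelium genes are the transcripts by which the stroma of the thymus, as opposed to its developing T cells, is usually recognised. The 10 genes Epcam, Krt5, Krt8, Krt18, Foxn1, Aire, Prss16, Ly75, Dll4 and Ccl25 were taken by symbol from a table of 55536 genes, and all 10 were found. Of these, 9 were among the 18690 genes with enough counts to be tested, and Foxn1 was not. The table holds messenger RNA counts of mouse thymocytes in 6 libraries, 3 from wildtype mice (Il3ra+/+) and 3 from mice labelled as lacking the alpha chain of the interleukin-3 receptor (Il3ra-/-), all at steady state and 1 library per mouse. The sources used here do not state strain, age, the deleted part of Il3ra or how thymocytes were separated from stroma.

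The thymus is built on epithelial cells. Those of the cortex attract progenitors, commit them to the T lineage through Notch and select them on self-peptides, and those of the medulla display tissue-restricted proteins so that self-reactive thymocytes are removed. FOXN1 is the transcription factor on which thymic epithelium depends, and AIRE is the regulator that lets medullary cells express proteins of other organs. A thymocyte suspension holds such cells only as remnants, and several of these genes are also known from other cells, Ly75 from dendritic cells, Dll4 from endothelium and Aire from thymic B cells. In bulk RNA, fewer cells of a type and less RNA per cell cannot be told apart.

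Facts of the whole series bear on every value below. Totals were 55747682 to 82684219 counts per library, so 1 count was worth 0.0119 to 0.0173 CPM (counts relative to library size, corrected for composition by edgeR's TMM). Il3ra had 6.11 to 7.80 CPM in wildtype and 7.39 to 8.02 CPM in the libraries labelled knockout, so the targeted gene does not check the labels, and directions are those of the labels. Replicate 1 of each genotype stood apart with 88078 and 128236 counts of Xist, the RNA of the inactive X chromosome, against 8 to 57 in the other 4 libraries. Ddx3y, on the Y chromosome, had 1 and 3 counts there, against 6476 to 11226 in the other 4. By these genes replicate 1 of each genotype reads as female and the others as male. Fits with replicate 1 of both genotypes left out thus use only libraries that read as male. Thymocyte markers were abundant: Cd8a, the coreceptor chain, had a mean of 447 FPKM (CPM per kilobase of annotated exon) and Rag1, the recombinase, 482 FPKM.

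A promoter of Ccl25 is shown first because this gene has starts of unlike surroundings, and that of Aire beside it as the member promoter that holds both motifs searched. RefSeq promoters on GRCm38.p6 matched 9 of the 10 members by symbol. Prss16 was not matched. In the 250 bases before each start, on both strands, GACGC, the core letters recognised by FOXN1, were found in 2 of the 10 promoters of these members (Aire and the first start of Ccl25), a share near the 22.6% of all 32851 promoters in the table. TATAAA, the TATA box, was found in 2 of the 10 (Aire and the second start of Ccl25), against 12.4% of all promoters, and neither motif overlaps the other. Below, capitals mark TATAAA and, in Aire, GCGTC, which is GACGC read on the other strand. The lines show the windows of Aire (chr10:78043611-78043860, minus strand) and of the second start of Ccl25 (chr8:4349338-4349587, plus strand), 5′ to 3′.
Aire: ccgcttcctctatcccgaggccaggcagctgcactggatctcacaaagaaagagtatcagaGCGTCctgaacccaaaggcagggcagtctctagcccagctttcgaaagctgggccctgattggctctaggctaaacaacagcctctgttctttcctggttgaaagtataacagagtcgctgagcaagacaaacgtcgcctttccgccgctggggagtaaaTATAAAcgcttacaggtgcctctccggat
Ccl25, second start: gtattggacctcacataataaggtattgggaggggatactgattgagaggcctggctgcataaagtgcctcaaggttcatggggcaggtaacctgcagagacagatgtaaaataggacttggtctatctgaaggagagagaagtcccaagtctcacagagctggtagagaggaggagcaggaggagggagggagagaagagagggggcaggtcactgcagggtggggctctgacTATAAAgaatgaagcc
In Aire the FOXN1 letters begin 189 bases and TATAAA 29 bases before the start. In Ccl25 TATAAA begins 16 bases before the second start, and the GACGC match lies 56 bases before the first start, which sits in an exon of another gene and is not printed. A match is a description of letters and not a bound site.

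Ccl25 is annotated from starts 24.4 kb apart. Of its 10 transcripts, 7 begin within 100 bases of the first start (chromosome 8, 4325210), all inside the first exon of Elavl1 (4324886 to 4325413), which encodes an RNA-binding protein and runs on the opposite strand. At the second start (4349588) 2 transcripts begin, both protein-coding, and the remaining 1 begins between the starts. The deposited counts are summed over the whole gene, so transcripts of the different starts are not separated. Ccl25 and Elavl1 share 204 exon bases, 2.74% of the exon bases of Ccl25, and the strand setting of the counting is unknown here. Elavl1 had 5075 to 6979 counts per library, and Ccl25 had 0.0616 to 0.0963 counts per Elavl1 count.

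**Figure D1:**
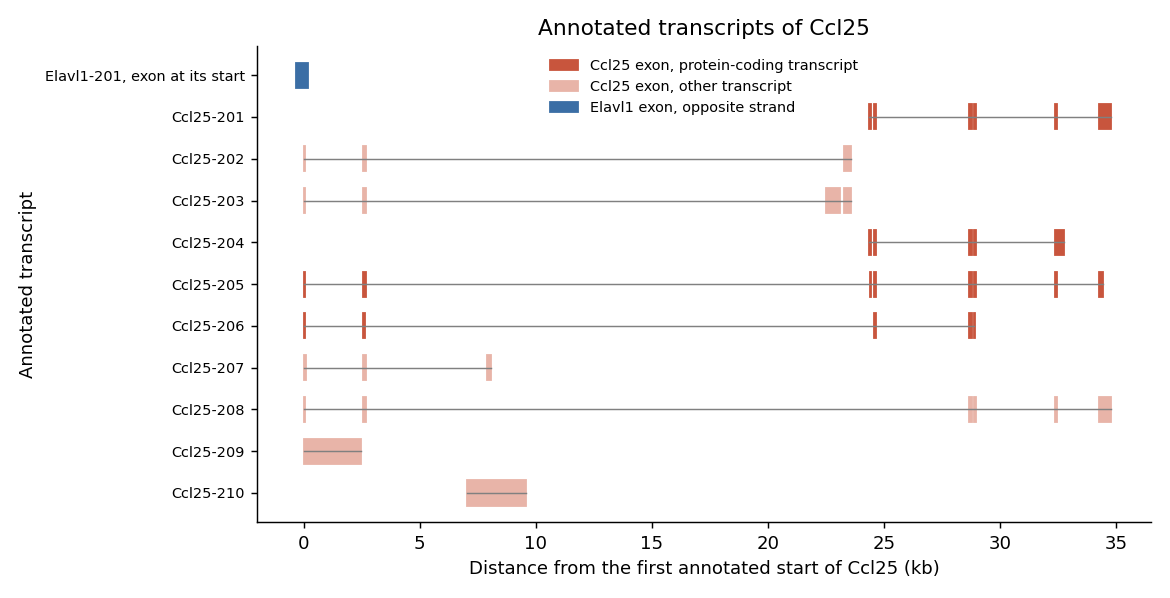
Annotated transcripts of Ccl25 (rows) against the distance from its first start in kb, with exons as boxes and, at the top, the exon of Elavl1 at its start. A reader should see that 7 of the 10 transcripts begin inside the Elavl1 exon and 2 begin 24.4 kb downstream.

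Per kilobase of exon, all members were far below the thymocyte markers. The highest were Ly75, an endocytic receptor of cortical epithelium and dendritic cells, at 3.24 ± 0.648 FPKM, and Epcam, an epithelial adhesion molecule, at 2.82 ± 0.370 FPKM (SD over 6 libraries). Their ranges overlapped, with Ly75 above Epcam in 4 of 6 libraries. Krt18 (1.17 ± 0.416 FPKM), Ccl25 (0.920 ± 0.161) and Krt8 (0.624 ± 0.319) came next, and their ranges overlapped in that order. Aire, Prss16 and Krt5 had means of 0.221, 0.209 and 0.149 FPKM, with Aire above Prss16 in 3 of 6 libraries. Dll4 and Foxn1 were lowest at 0.0469 and 0.0387 FPKM. Of the neighbours in this order, Epcam and Krt18 alone had ranges that did not overlap.

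**Figure D2:**
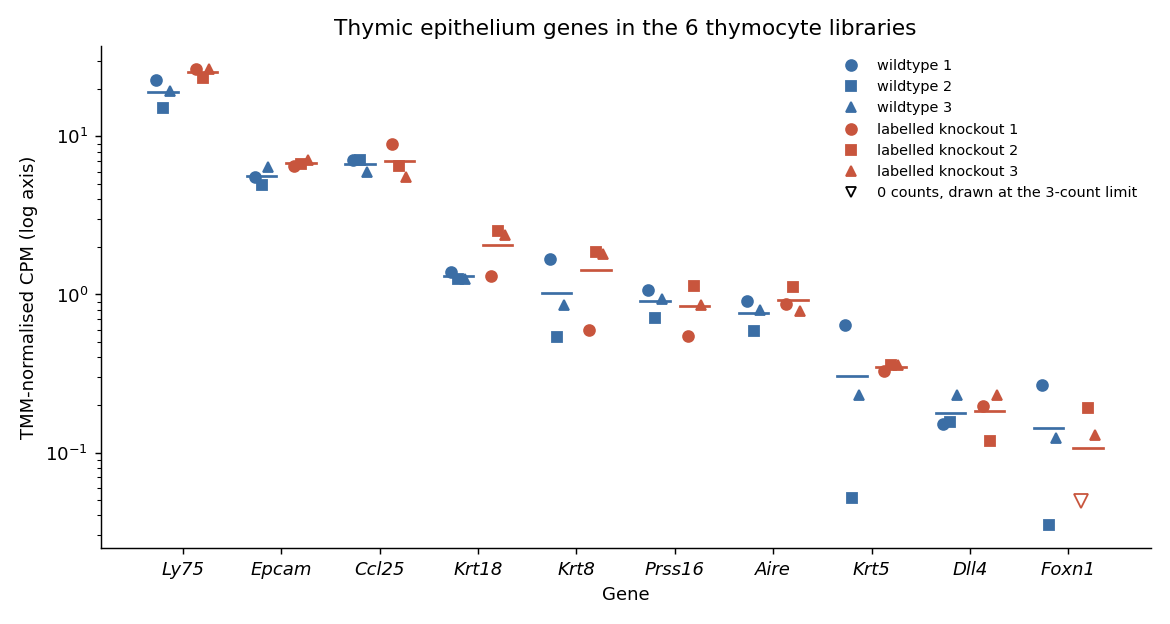
TMM-normalised CPM of the 10 genes (log axis) in each library, with wildtype in blue, libraries labelled knockout in red, marker shape for the replicate number and a bar for the genotype mean of 3. Ly75 and Epcam are the genes whose red points all lie above the blue ones, and the open triangle marks 0 Foxn1 counts in labelled knockout replicate 1.

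Epcam and the keratins, structural genes of epithelium, differed in how steady they were. Epcam (ENSMUSG00000045394, chromosome 17, 87635979 to 87651129) had 5.50, 4.95 and 6.40 CPM in wildtype replicates 1 to 3 and 6.53, 6.66 and 7.14 in the labelled knockout. The genotypes did not overlap, by a gap of 6.40 to 6.53 CPM, and the counting intervals of the libraries on either side of it overlapped. The fold of 1.21 (95% interval 0.949 to 1.53) did not pass the quasi-likelihood test of edgeR (adjusted p = 0.457, by Benjamini-Hochberg over all tested genes).

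Krt8 and Krt18 encode the keratin pair of simple epithelium and of cortical thymic cells and are neighbours on chromosome 15 (101996698 to 102004482 and 102028180 to 102032027). Krt18 (ENSMUSG00000023043) had 1.39, 1.25 and 1.26 CPM in wildtype and 1.31, 2.53 and 2.37 CPM in the labelled knockout. Replicates 2 and 3 of the labelled knockout were high and replicate 1 lay within the wildtype range. Its fold was 1.60 (95% interval 1.04 to 2.46; edgeR adjusted p = 0.305).

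Krt8 (ENSMUSG00000049382) had 1.68, 0.536 and 0.858 CPM in wildtype and 0.595, 1.86 and 1.81 CPM in the labelled knockout. It spanned 3.13-fold within each genotype, so the genotypes overlapped over most of their range. The fold was 1.39 (95% interval 0.659 to 2.95; edgeR adjusted p = 0.692). With replicate 1 of both genotypes left out, Krt8 alone among the members passed edgeR's test, at a log2 fold of 1.39 (adjusted p = 0.0470, against 0.0470 to 0.972 over its alternatives), and Krt18 had a log2 fold of 0.97 (adjusted p = 0.0556).

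Krt5, the keratin of basal and medullary epithelium (ENSMUSG00000061527, chromosome 15, 101707070 to 101712898), rested on few counts. It had 38, 3 and 15 counts in wildtype and 20, 30 and 25 in the labelled knockout. These are 0.637, 0.0519 and 0.230 CPM against 0.330, 0.357 and 0.359 CPM, a span of 12.3-fold in wildtype and 1.09-fold in the labelled knockout. The Clopper-Pearson 95% counting intervals of wildtype replicates 1 and 2 were 0.451 to 0.875 and 0.0107 to 0.152 CPM. The log2 fold of 0.19 (edgeR adjusted p = 0.923) turned to -0.30 without wildtype replicate 2 and was 1.31 with replicate 1 of both genotypes left out (edgeR adjusted p = 0.949 and 0.203, in a range of 0.203 to 0.997).

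The regulators Foxn1 and Aire did not share a pattern. Foxn1 (ENSMUSG00000002057, chromosome 11, 78357577 to 78386558) had 16, 2 and 8 counts in wildtype and 0, 16 and 9 in the labelled knockout. In labelled knockout replicate 1 the 0 counts allow up to 3, or 0.0496 CPM, and replicate 1 of wildtype had 0.268 CPM. High and low libraries occurred in both genotypes, and the gene did not reach the count filter. Without that filter its log2 fold was -0.36 (edgeR adjusted p = 0.865), and without labelled knockout replicate 1, the library with 0 counts, it turned to 0.18 (adjusted p = 0.915).

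Aire (ENSMUSG00000000731, chromosome 10, 78030022 to 78043610) was measured in every library, with 54, 34 and 52 counts in wildtype and 53, 94 and 55 in the labelled knockout. Its 0.906, 0.588 and 0.797 CPM against 0.876, 1.12 and 0.790 CPM overlapped, and it spanned 1.90-fold over the 6 libraries. The fold was 1.22 (95% interval 0.771 to 1.92; edgeR adjusted p = 0.702). Aire shares 67 exon bases with Dnmt3l on the opposite strand, which had 0 to 6 counts per library.

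Among the cortical genes, Ly75 had the smallest p of all members. Ly75 (ENSMUSG00000026980, chromosome 2, 60292103 to 60383303) had 22.7, 15.2 and 19.3 CPM in wildtype and 26.6, 23.4 and 26.8 CPM in the labelled knockout. All 3 labelled knockout libraries lay above wildtype, with replicate 2 of the labelled knockout only just above replicate 1 of wildtype. The fold was 1.34 (95% interval 1.08 to 1.67), and it did not pass edgeR's test over all tested genes (unadjusted p = 0.0126, adjusted p = 0.227). Without the low-count filter the adjusted p was 0.0456, in a range of 0.0456 to 0.723 over its alternatives.

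Dendritic cells also carry Ly75. The summed level of their 8 markers was 21.6, 24.3 and 21.9 CPM in wildtype and 14.5, 33.2 and 53.4 CPM in the labelled knockout. Siglech, a gene of plasmacytoid cells, made up 21.9 CPM of the highest sum and 2.16 to 7.04 CPM elsewhere. Of the 8 markers, 5 were fitted higher in the labelled knockout, Siglech among them, and 3 lower, Xcr1 (fold 0.717) among them. The lowest library for 7 of the 8 markers was labelled knockout replicate 1. Across the 6 libraries Ly75 and the mean log2 level of these markers had r = 0.04, a description of libraries that share scaling and depth. The part of dendritic cells in the Ly75 values was not tested.

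Prss16, the thymus-specific serine protease of cortical cells (ENSMUSG00000006179, chromosome 13, 22002173 to 22009742), had 64, 41 and 61 counts in wildtype and 33, 95 and 60 in the labelled knockout. Its 1.07, 0.709 and 0.935 CPM against 0.545, 1.13 and 0.862 CPM put both the lowest and the highest library in the labelled knockout. The fold was 0.939 (95% interval 0.565 to 1.56; edgeR adjusted p = 0.930).

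The cortical ligands Dll4 and Ccl25 had folds near 1, with a wide interval for Dll4. Dll4, the Notch ligand that commits progenitors to the T lineage (ENSMUSG00000027314, chromosome 2, 119325784 to 119335962), had 9, 9 and 15 counts in wildtype and 12, 10 and 16 in the labelled knockout. All 6 counting intervals, which cover counting error only, overlapped, and no test between libraries was run. Its fold was 1.01 (95% interval 0.482 to 2.10; edgeR adjusted p = 0.994).

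Ccl25, the chemokine that draws CCR9-bearing thymocytes (ENSMUSG00000023235, chromosome 8, 4325210 to 4360020), had 7.09, 7.06 and 5.96 CPM in wildtype and 8.95, 6.53 and 5.52 CPM in the labelled knockout. The highest and the lowest library were replicates 1 and 3 of the labelled knockout. The fold was 1.04 (95% interval 0.780 to 1.40; edgeR adjusted p = 0.916).

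**Figure D3:**
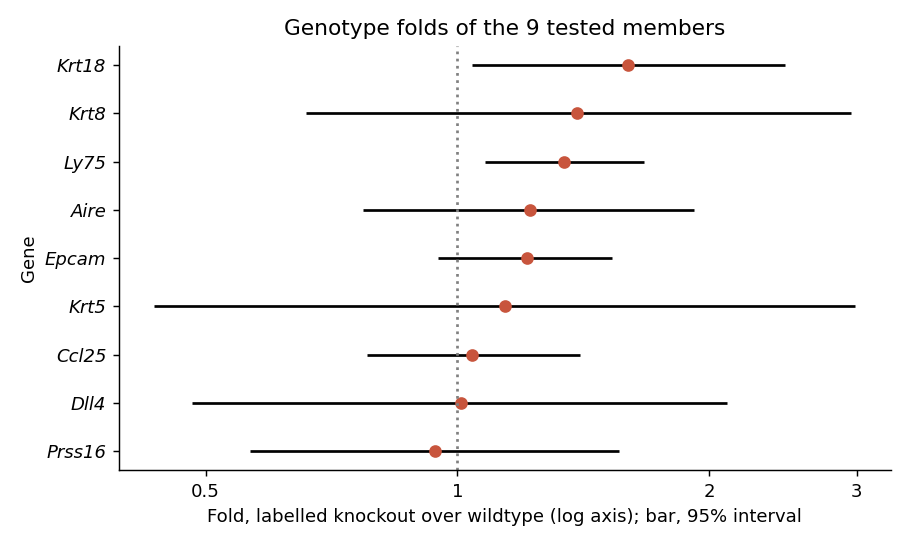
Fold of labelled knockout over wildtype (log axis) for the 9 tested genes, with 95% intervals from edgeR. Ly75 and Krt18 have intervals above 1 before adjustment (1.08 to 1.67 and 1.04 to 2.46), and Krt5, Krt8 and Dll4 have the widest ones.

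Over the whole list, 0 of 9 tested members passed edgeR's adjusted threshold of 0.05, beside 0.0910% of all 18690 tested genes. DESeq2 and limma-voom also called 0 members, though DESeq2 gave no adjusted p for 6 of all 10, Foxn1 among them. Ly75 and Krt18 had an unadjusted p under 0.05 by edgeR and were higher in the labelled knockout, 2 of 9 against 8.01% of all tested genes, and the counts by DESeq2 and limma-voom were 2 and 1. Over all genes and both directions, an unadjusted p under 0.05 came in 14.6% by edgeR, 8.52% by DESeq2 and 14.3% by limma-voom. Adjusted calls came in 4.48% of the genes to which DESeq2 gave an adjusted p and in 0.0749% by limma-voom. By edgeR they came in 2.53% without the low-count filter and in 3.98% with replicate 1 of both genotypes left out, and counts of list genes below are read against these shares. In 2 of 9 members (Ly75 and Epcam) all labelled knockout libraries lay above wildtype, against 10.9% of all tested genes. The median log2 fold of the 9 was 0.27, with 8 fitted higher, and the median over all tested genes was 0.01. Leaving out wildtype replicate 2 lowered the median to 0.12 and left 0 members with an unadjusted p under 0.05, and that library was the lowest of the 6 in 6 of the 9 members.

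Members that rose and fell together across libraries were a subset. Of the 45 pairs of members, 8 had a correlation of log2 CPM of at least 0.7 over the 6 libraries and 15 had one below 0, of which 11 were at -0.1 or lower. Foxn1 and Prss16 had r = 0.97, Krt8 and Prss16 r = 0.80, Foxn1 and Krt8 r = 0.80, and Krt8 and Krt18 r = 0.78. Foxn1 rests on few counts in several libraries. Krt5 went with Ly75 (r = 0.83) and Aire (r = 0.80), whereas Ccl25 had r = -0.74 with Foxn1 and -0.63 with Prss16. The r values are Pearson correlations. By rank (Spearman) Krt5 had 0.60 with Ly75 and 0.54 with Aire, and Ccl25 had only -0.26 with Foxn1 and -0.31 with Prss16. The rank values were 0.89 for Foxn1 and Prss16, 0.77 for Krt8 and Prss16, 0.77 for Foxn1 and Krt8, and 0.94 for Krt8 and Krt18. These values are descriptions over 6 points that share library scaling and depth.

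The other cortical genes, taken as a mean level of 4 tested genes, showed the same division. Their correlation over the 6 libraries was 0.91 with Prss16, 0.84 with Krt8 and 0.82 with Foxn1. It was 0.14 with Ly75, 0.13 with Epcam, -0.41 with Ccl25 and -0.68 with Dll4. Across these libraries the 10 genes thus did not move as 1 group. The mean level of 6 other medullary genes had r = 0.87 with Prss16, 0.87 with Krt8 and 0.95 with Foxn1. For 7 general epithelial genes these values were 0.85, 0.99 and 0.86, so the links were not particular to cortical genes. The correlation of Prss16 was also 0.91 with 6 thymocyte receptor genes and 0.82 with 6 B cell genes, and that of Krt8 was 0.95 with 7 macrophage genes.

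**Figure D4:**
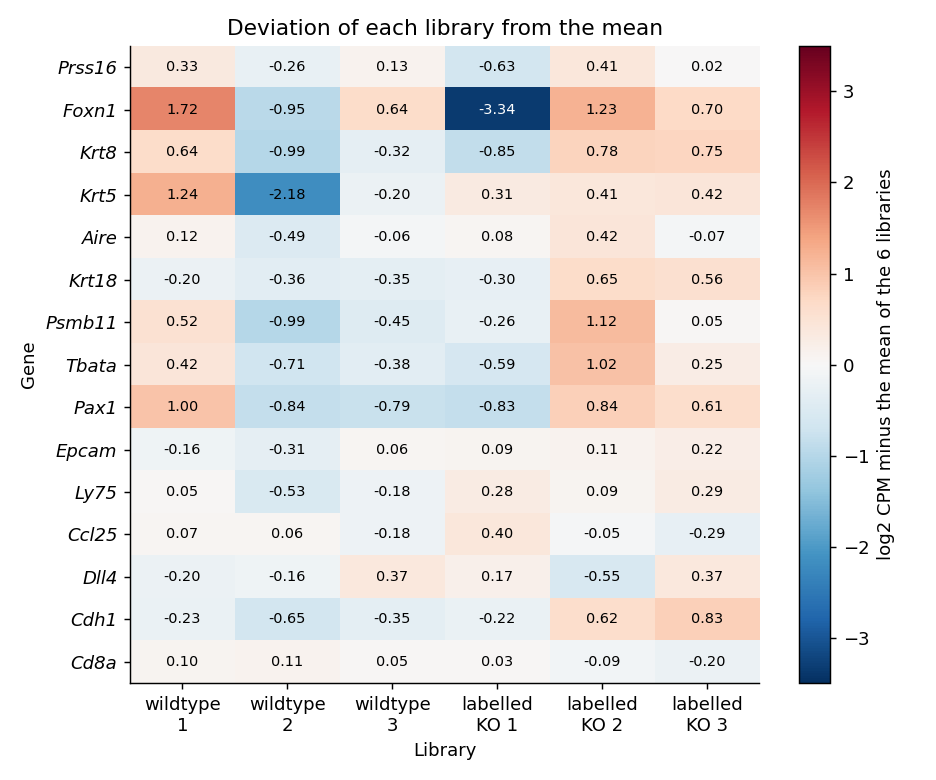
Log2 CPM of each gene in each library minus its mean over the 6 libraries, from blue (lower) to red (higher), with Cd8a as a thymocyte marker. Foxn1, Krt8, Psmb11, Tbata and Pax1 are below their mean in wildtype replicate 2 and labelled knockout replicate 1 and above it in labelled knockout replicate 2. In wildtype replicate 3 Krt8 (-0.32), Tbata (-0.38), Psmb11 (-0.45) and Pax1 (-0.79) are also below their means. In labelled knockout replicate 1 Psmb11 is only at -0.26. Epcam, Aire, Ly75 and Ccl25 stay within 0.53 of their mean. The Foxn1 value of -3.34 stands for 0 counts and depends on the prior of 0.5 counts.

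The tested genes whose pattern was most like that of Prss16 are in none of the epithelial lists used here. Among 11455 genes with a mean of at least 1 CPM, the closest over the 6 libraries were Slc2a1, the glucose transporter (r = 0.987), Ubash3b (0.986), Otud1 (0.983), Asb2 (0.983) and Traf5 (0.982). Tbata and Krt8 stood at ranks 307 and 320. Among the closest to Aire were S1pr1, the receptor that guides thymocytes out of the thymus (r = 0.975), Ica1l (0.973), Trps1 (0.959) and Mettl6 (0.950). With 6 libraries many genes reach such values.

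Cortical and medullary members were then set against each other within each library. The mean log2 CPM of Prss16, Ly75, Ccl25 and Dll4 minus that of Aire and Krt5 was 1.58, 3.31 and 2.37 in wildtype and 2.06, 1.76 and 2.12 in the labelled knockout. The genotype means were 2.42 ± 0.87 and 1.98 ± 0.20 (SD, n = 3 each), and the labelled knockout libraries lay inside the wildtype range. The difference of -0.44 was smaller than the wildtype SD. It was 0.01 without wildtype replicate 2, the library with 3 Krt5 counts, and -0.86 without wildtype replicate 1. The measure adds genes of unlike patterns, as given above.

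Prss16 was also set against Aire, 1 cortical and 1 medullary gene of similar level. Of the summed counts of both, Prss16 took 54.2%, 54.7% and 54.0% in wildtype and 38.4%, 50.3% and 52.2% in the labelled knockout. The wildtype shares were close together and those of the labelled knockout were spread. All wildtype shares lay above all labelled knockout shares, with most of the gap in replicate 1. The Clopper-Pearson 95% interval there was 28.1% to 49.5%, on 86 counts, and it overlapped that of every wildtype library (44.8% to 63.4% in replicate 1). The intervals cover counting error only. This pair was chosen after its values were seen, so no test is given.

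**Figure D5:**
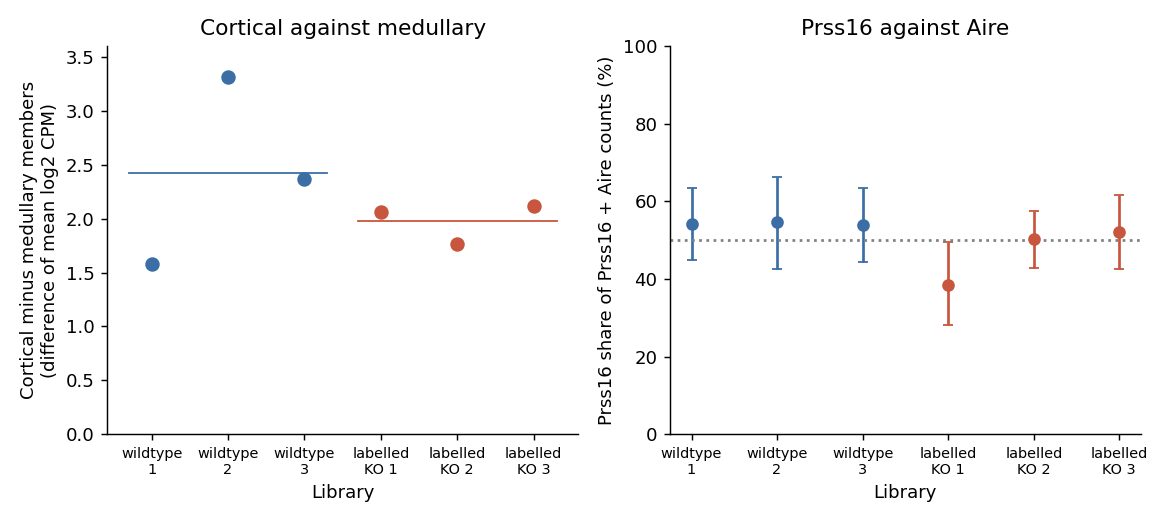
Left, mean log2 CPM of the 4 cortical members minus that of Aire and Krt5 by library, with genotype means as lines; right, the Prss16 share of Prss16 and Aire counts in percent with Clopper-Pearson 95% intervals and a dotted line at equal counts. Wildtype runs from 1.58 to 3.31 on the left, and on the right labelled knockout replicate 1 is lowest at 38.4%.

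Other genes of thymic epithelium, listed apart from the members, passed no adjusted test in edgeR with its low-count filter and all 6 libraries. Some passed without that filter or with replicate 1 of both genotypes left out. In the cortical list 0 of 4 tested genes passed in edgeR, and neither edgeR nor DESeq2 nor limma-voom gave an unadjusted p below 0.05 (0 genes each). Psmb11, the thymoproteasome subunit of cortical cells, had 1.06, 0.363 and 0.536 CPM in wildtype and 0.611, 1.61 and 0.762 CPM in the labelled knockout (fold 1.53, 95% interval 0.755 to 3.11). Tbata, a thymic stromal gene, had 2.97, 1.35 and 1.70 CPM against 1.47, 4.49 and 2.63 CPM (fold 1.43). Its log2 fold of 0.52 was 1.22 with replicate 1 of both genotypes left out (edgeR adjusted p = 0.0498, in a range of 0.0498 to 0.982) and 0.04 without labelled knockout replicate 2. That of Psmb11 was 0.62, and 1.39 and 0.08 in the same fits, with no call. Both were lowest in wildtype replicate 2 and highest in labelled knockout replicate 2. Cxcl12, the ligand of CXCR4, had 0.302 ± 0.0383 and 0.244 ± 0.207 CPM. Ctsl, the cathepsin that cortical cells use for peptides, stood far higher at 13.5 FPKM and varied little (90.7 ± 2.28 and 85.1 ± 7.17 CPM).

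In the medullary list 0 of 6 tested genes passed, again with 0 unadjusted by each of these tools. Avil, a tuft cell gene (fold 0.715), Krt10, a keratin of differentiated epithelium (1.17), Tnfrsf11a, which encodes RANK (0.944), and the tight junction gene Cldn4 (0.988) overlapped between genotypes. Cldn4 had 572 to 881 counts in wildtype, far above Krt14, another basal keratin, at 1 to 9 counts. Fezf2, the other regulator of medullary self-antigens, had 16, 3 and 2 counts in wildtype and 0, 9 and 6 in the labelled knockout. Krt14 and Fezf2 were named after their values were seen.

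Self-antigens of other organs were at the limit of detection. Of the 8 listed as dependent on Aire or Fezf2, 7 matched by symbol, 3 (Ins2, Mup4 and Ttr) had 0 counts in every library, and Csn2, a milk casein, alone was tested. Csn2 had 13, 5 and 14 counts in wildtype and 4, 21 and 11 in the labelled knockout (fold 0.933, 95% interval 0.386 to 2.25). Of this list edgeR and limma-voom called 0 genes, and edgeR, DESeq2 and limma-voom each gave 0 an unadjusted p under 0.05. DESeq2 gave no adjusted p for any gene of this list, so it could call none. A count of 0 allows up to 0.0357 to 0.0519 CPM per library.

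Among general epithelial genes, Cdh1 had the smallest p. Cdh1, which encodes E-cadherin, had 257, 186 and 259 counts in wildtype and 263, 654 and 626 in the labelled knockout. Replicates 2 and 3 of the labelled knockout were high, and replicate 1, at 4.34 CPM, lay only just above wildtype replicate 1 at 4.31 CPM. Its fold was 1.84 (log2 0.88, SE 0.25; edgeR adjusted p = 0.178). DESeq2 gave an adjusted p of 0.0128, and edgeR without the low-count filter gave 0.00147. The range over the alternatives for this gene was 0.00147 to 0.664. In this list 0 of 7 tested genes passed in edgeR and 1 (Cdh1) had an unadjusted p under 0.05, a share near the 14.6% of all tested genes. DESeq2 called 1, Cdh1, and gave no adjusted p for the other 14 of the 15 listed genes. By limma-voom 0 were called. With replicate 1 of both genotypes left out edgeR called 2, Cdh1 (adjusted p = 0.0196) and Pax1. Pax1, a transcription factor of the pharyngeal pouches from which the thymus grows, had 64, 17 and 20 counts in wildtype and 18, 81 and 57 in the labelled knockout. Its log2 fold of 0.33 became 1.57 in that fit (edgeR adjusted p = 0.0498, in a range of 0.0498 to 0.996) and 0.02 without labelled knockout replicate 2. Esrp1, an epithelial splicing regulator, had a fold of 0.605, with all labelled knockout libraries below wildtype, while Eya1 (1.43) and Rab25 (1.27) overlapped.

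Thymocytes and medullary epithelium induce each other through the lymphotoxin, RANK and CD40 pathways. Of 11 tested genes of this crosstalk, edgeR called 0, DESeq2 0 and limma-voom 0, and 3 had an unadjusted p under 0.05 by each, beside 14.6% of all tested genes by edgeR. Ltb, the membrane lymphotoxin chain that thymocytes make, had 137, 107 and 98.5 CPM in wildtype and 87.6, 90.9 and 93.9 CPM in the labelled knockout (fold 0.795). Nfkb2, the subunit of the non-canonical pathway, had a fold of 0.847, and for both all labelled knockout libraries were below wildtype. These 2 of 11 with an unadjusted p under 0.05 and a lower level stand beside 6.60% of all tested genes, and 2 of 11 without overlap beside 9.38%. Ltbr, the lymphotoxin receptor carried by stroma and myeloid cells, had 65, 74 and 49 counts in wildtype and 109, 114 and 190 in the labelled knockout, without overlap in CPM (fold 1.89, 95% interval 1.16 to 3.07; edgeR adjusted p = 0.241). Lta had a fold of 0.808.

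The receptors by which thymocytes read epithelial ligands included the partner of Ccl25. Ccr9 had 800, 768 and 872 CPM in wildtype and 570, 692 and 590 CPM in the labelled knockout, without overlap. Its fold of 0.759 (95% interval 0.638 to 0.902) did not pass edgeR's test (adjusted p = 0.176), while DESeq2 gave an adjusted p of 0.0206, in a range of 0.0206 to 0.634 over the alternatives for this gene. Kit, the receptor of stem cell factor, had a fold of 1.52, Cxcr4 0.892 and Ccr7 0.876. Of the 6 receptors edgeR called 0, with 2 (Ccr9 and Kit) at an unadjusted p under 0.05 beside 14.6% of all tested genes. DESeq2 called 1, beside 4.48%, and limma-voom 0. Without the low-count filter edgeR called both (adjusted p = 0.0394 and 0.0204), and with replicate 1 of both genotypes left out it called Kit (adjusted p = 0.0365, in a range of 0.0204 to 0.694).

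Markers of other cells moved with the libraries. Labelled knockout replicate 1 was the lowest library for 7 of 8 dendritic cell, 5 of 7 macrophage, 5 of 6 B cell and 4 of 5 red cell genes. Summed macrophage markers were 45.1 to 67.3 CPM in wildtype and 38.0, 66.2 and 77.7 CPM in labelled knockout replicates 1 to 3. Red cell transcripts ran from 9.06 to 57.6 CPM in wildtype and from 3.37 to 34.2 CPM in the labelled knockout. B cell markers summed to 624 to 798 and 581 to 699 CPM, endothelial ones to 119 to 122 and 118 to 126 CPM, and fibroblast ones to 6.12 to 8.32 and 8.09 to 10.9 CPM. Ighm, the immunoglobulin heavy chain, makes up most of the B cell sum at 536 to 752 CPM, and Pecam1 most of the endothelial sum, while Emcn and Cldn5 had at most 1 count in a library. The part of these other cells in the keratin and Prss16 values was not tested.

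Thymocyte markers summed to 11100 to 12400 CPM in wildtype and 9820 to 10400 CPM in the labelled knockout, and 4 of 9 (Cd8b1, Cd4, Lck and Rag1, folds 0.811 to 0.825) had an unadjusted p under 0.05 by edgeR and were lower, beside 6.60% of all tested genes. In 6 of 9 all labelled knockout libraries lay below wildtype, beside 9.38% of all tested genes. Ptcra and Dntt, of the same list, were fitted higher (folds 1.10 and 1.06). Rag1 alone made up 2810 to 4020 CPM of the sums. Of these other-cell and thymocyte genes edgeR called 0. Without the low-count filter it called 1 endothelial and 1 fibroblast gene, beside 2.53% of all genes. DESeq2 called 1 fibroblast gene, Pdgfrb, and limma-voom 0. To the other 6 listed fibroblast genes DESeq2 gave no adjusted p. The other tested fibroblast genes, Dcn and Col1a1, were fitted lower (folds 0.501 and 0.933). Unadjusted p-values under 0.05 came for Cdh5 in the endothelial and Pdgfrb in the fibroblast list by edgeR (folds 3.51 and 1.53), 1 of 5 and 1 of 3 tested genes, both higher, beside 8.01% of all tested genes. DESeq2 gave 2 such genes in the dendritic cell and 2 in the endothelial list, beside 8.52% of all genes. The counts of Cdh5 were 22, 26 and 29 in wildtype and 41, 68 and 206 in the labelled knockout, by far the highest in replicate 3. With replicate 1 of both genotypes left out edgeR called 3 of 7 macrophage genes (C1qa, C1qb and C1qc) and 1 gene each of the dendritic cell, fibroblast and red cell lists, beside 3.98% of all genes.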

How the data were processed

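RNA of mouse thymocytes was purified with a column kit and made into stranded, poly(A)-selected libraries, per the labels' protocols. STAR 2.5.4b, featureCounts and GRCm38 are named in the submitters' processing notes. The sources used here do not give the version, annotation, strand setting or handling of shared reads of featureCounts. In the count table, the authors deposited raw gene counts, 1 column per library, not normalised.

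All 55536 identifiers matched GENCODE M21, which gave symbols, positions and merged exon lengths. Columns were assigned to libraries by name. Genes passing edgeR's filterByExpr (18690) were scaled by TMM and compared with edgeR 4.0.16 (robust glmQLFit, glmQLFTest, R 4.3.3) without covariates, and p-values were Benjamini-Hochberg adjusted over all tested genes, with a threshold of 0.05. The fit was tested on simulated data, with changes set only in genes above about 1 CPM on average. Aire, Prss16, Krt5 and Dll4 lie below that level, so the simulation does not cover changes at theirs. Standard errors came from the fold and the F statistic. Log2 CPM used a prior of 0.5 counts. Intervals on counts are Clopper-Pearson at 95%, and a count of 0 was taken to allow 3. Both cover counting error only.

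The members and lists were chosen with earlier results of these data known. The named genes are the 10 members, up to 4 genes of smallest unadjusted p per list (cortical, medullary, epithelial identity, self-antigens, crosstalk, receptors, thymocytes and other cells) and the 5 most correlated with Prss16 and with Aire, of which 1 is not reported here. Others are said to be chosen after their values were seen, as Pax1, the C1q genes, Pecam1, Emcn, Cldn5, Ptcra, Dntt and Ddx3y were. Spt1 matched no symbol, and the chromosome 4 copy of Ccl21a and Ccl19 was used. The labels give 3 mice per genotype. Alternatives were DESeq2 1.42.0, limma-voom (limma 3.58.1), other scalings and filters, a replicate block, omitted libraries and a covariate for the Xist-high libraries.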

Additional observations from a re-analysis of the deposited data

How the results depend on the processing

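The number of genes called out of all tested genes was 17. It was 594 by DESeq2, 840 without the low-count filter, 762 with replicate 1 of both genotypes left out, and 8 to 29 when 1 library at a time was omitted (8 without wildtype replicate 2, 29 without labelled knockout replicate 1). Members called rose from 0 to 1 without the filter (Ly75) and to 1 with replicate 1 of both genotypes left out (Krt8), and stayed 0 under the other alternatives. Members with an unadjusted p under 0.05 numbered 2. They numbered 1 by limma-voom, 1 with the Xist-high covariate and 0 to 3 with 1 library omitted, 0 without wildtype replicate 2. The members' median log2 fold ran from 0.12 to 0.46 over all alternatives. The cortical minus medullary difference ran from -0.90, with replicate 1 of both genotypes left out, to 0.01. Changes of test, filter or block leave that difference as it is by construction. For these shifts the cause was not tested. The sign of the log2 fold turned in 1 of 14 alternatives for Krt5, 3 of 14 for Prss16, 6 of 14 for Dll4 and 3 of 15 for Ccl25, none of which passed the test. Foxn1, fitted in 6 alternatives, turned in 1. With replicate 1 of both genotypes left out, Tbata, Pax1, Cdh1 and Kit were also called.

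The replicate block gave 9 calls over all genes, 0 members called and 1 member with an unadjusted p under 0.05. Same-numbered libraries had correlations of -0.107, 0.029 and -0.115 in their deviations from the genotype means, and 0 of 3 wildtype libraries matched their own number best, so the numbers are not taken as pairs. Depth limits Foxn1, Krt5 and Dll4, at 0 to 38 counts per library.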

Other observations

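Tissue that lies next to the thymus left few transcripts. The parathyroid and fat markers summed to 0.138 to 0.319 CPM in wildtype and 0.165 to 0.230 CPM in the labelled knockout, and none of these 6 genes reached the count filter. Ccl21a, a chemokine of medullary epithelium with near-identical gene copies, had 36, 4 and 13 counts in wildtype and 3, 26 and 34 in the labelled knockout, and was singled out after its values were seen. Krt17, a keratin of basal epithelium, had 38, 8 and 20 counts against 7, 28 and 29. This gene was also singled out after its values were seen.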
